A study of Rattus norvegicus with 4 samples.

Results

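The genes described are 6 members of the ATP-binding cassette (ABC) family that move drugs or lipids across cell membranes: Abcb1a, Abcg2, Abcc4, Abca4, Abca1 and Abcg1. They were taken by symbol from the gene list of a single matrix that pools all samples and counts UMIs (unique molecular identifiers, each standing for 1 captured transcript). The list holds 32623 genes, and each of the 6 symbols matched exactly 1 entry. The matrix comes from droplet sequencing of dissociated rat hippocampus. The series titles 4 samples, all wild type: NC (the negative control), MCAO (blocking of the middle cerebral artery on 1 side, a stroke model), and DEPR and MD (both described as chronically stressed). The design text instead speaks of 20 male Sprague Dawley rats, adult, aged 10 to 12 months and weighing 250 to 300 g, in 2 groups. Both of its groups had MCAO and 1 of them was stressed afterwards, and the hippocampi came from 5 rats in each group. Which side of the brain was taken, and whether the rats of a group were pooled, is not stated in the labels. The barcodes end in 4 suffixes, called sets 1 to 4 here, and nothing ties a set to a titled sample. Each set therefore keeps its own value, the sets are not groups, and no test compares conditions.

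ABC transporters use ATP to move substrates through a membrane. In brain capillaries Abcb1a (a rodent gene for P-glycoprotein) and Abcg2 (breast cancer resistance protein) sit on the blood side of the endothelium and return many drugs to the blood. Abcc4 (a multidrug resistance-associated protein) exports organic anions, conjugates and cyclic nucleotides. Abca4 is best known as the photoreceptor flippase that clears retinoid adducts. Abca1 loads cholesterol and phospholipid onto lipid-poor apolipoproteins, and Abcg1 passes sterol on to lipoprotein particles. Abca1 and Abcg1 are textbook targets of the liver X receptors (LXR), nuclear receptors that sense oxysterols. A closely related rat gene, Abcb1b, had no entry under that symbol in the gene list and could not be analysed. The Abcb1a counts may hold reads of both P-glycoprotein genes, which was not tested.

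The bases before the start sites of Abcb1a and Abcg2 and the known LXR element of Abca1 are shown because these members parted by cell type. They come from RefSeq on the assembly GRCr8, whose table matched 5 of the 6 members, all but Abcg1. Each promoter window is the 250 bases before the start, on the gene's own strand. Capitals mark matches to the GC box (GGGCGG), the CCAAT box, the TATA box (TATAAA) and the E-box (CACGTG), searched on both strands, and no match overlaps another. The Abcb1a window is chr4:26397649-26397898 on the minus strand and the Abcg2 window is chr4:89075224-89075473 on the plus strand.
Abcb1a: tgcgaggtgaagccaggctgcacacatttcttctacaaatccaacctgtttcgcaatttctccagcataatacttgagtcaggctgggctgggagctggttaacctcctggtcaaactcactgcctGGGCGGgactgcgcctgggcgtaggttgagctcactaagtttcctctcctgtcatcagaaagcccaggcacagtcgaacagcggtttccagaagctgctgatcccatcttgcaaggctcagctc
Abcg2: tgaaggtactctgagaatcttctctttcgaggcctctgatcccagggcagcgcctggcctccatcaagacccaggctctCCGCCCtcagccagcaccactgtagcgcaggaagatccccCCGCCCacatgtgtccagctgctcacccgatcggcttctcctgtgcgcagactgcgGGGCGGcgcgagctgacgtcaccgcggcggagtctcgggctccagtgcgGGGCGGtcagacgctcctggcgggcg

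The Abcb1a window held 1 GC box, which begins 124 bases before the start, and the Abcg2 window held 4. Of 33469 promoters of this length, 30.5% held a GC box, 34% a CCAAT box, 12.9% a TATA box and 5.59% an E-box. GC content was 54.0% for Abcb1a and 67.2% for Abcg2, against 50.8% for Abca4, 59.6% for Abca1 and 77.6% for Abcc4. The Abcc4 window held 1 GC box, and the Abca4 window held none of these motifs. The Abca1 window held a GC box, an E-box, a TATA box and the LXR element. That element was searched on both strands with a pattern written to fit it, with any 4 bases between its arms, so its presence in Abca1 is not a result. It occurs in 2 of the 33469 promoters, and in Abca1 it lies within chr5:72596522-72596550 on the minus strand, in capitals here.
Abca1 site: cagcgttTGACCGGTAGTAACCccggcgc

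Of 31638 barcodes with 180847756 UMIs, 27937 cells passed the filters and 24576 were assigned a type by its own markers. Of the 13 types with at least 50 cells the largest were microglia (11195 cells), oligodendrocytes (7933) and endothelial cells (2829, with 879, 343, 612 and 995 in sets 1 to 4). Pericytes numbered 496 and smooth muscle cells 350, while the neuron gate held 0 cells and the astrocyte gate 4. The gate named erythroid held 178, 110, 2 and 3 cells in sets 1 to 4. In it the 12 endothelial markers stood at a median of 26.0% of their endothelial level and the 6 members at 25.3% to 41.4%, so its member counts are not read as those of red cells. The B cell gate held 50 cells, 45 of them with the fewest markers allowed, and its member values are not described. Endothelial cells, oligodendrocytes and most microglia of sets 1 and 2 fell into other clusters than those of sets 3 and 4, while clusters of pericytes, smooth muscle and T cells held all sets. Of the endothelial clusters 1 held 949, 331, 14 and 10 cells of sets 1 to 4 and another held 34, 20, 642 and 1012. In all, 96 barcode sequences occurred in more than 1 set, 83 of them among the kept cells.

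The 3 drug pumps were called higher in endothelial cells than in all other gated cells, in every set. Levels are given as CPM, the UMIs of a gene per 1000000 UMIs summed over the cells of a type in 1 set, with 95% Poisson intervals that cover counting error only. Abcb1a, the main drug efflux pump of the blood-brain barrier, stood at 1320.2 CPM in endothelial cells of set 1 (1293 to 1348), 1372 in set 2 (1322 to 1424), 1713 in set 3 (1673 to 1754) and 1695 in set 4 (1661 to 1730). Sets 3 and 4 were the higher ones. At least 1 Abcb1a UMI was found in 94.99%, 92.1%, 97.7% and 94.97% of the endothelial cells, and 5 or more in 61.9%, 54.2%, 73.5% and 64.4%. In oligodendrocytes, which are not known for the pump, a UMI was found in 2.27% to 3.19% of cells, at a median depth of 5587 UMIs against 4517 in endothelial cells.

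Abcg2, the other main barrier pump, stood at 424, 454, 898 and 906 CPM in endothelial cells of sets 1 to 4, with intervals of 409 to 440, 425 to 484, 869 to 928 and 881 to 932. Sets 3 and 4 lay far above sets 1 and 2, with no overlap of intervals. A UMI of Abcg2 was found in 77.5%, 70.8%, 91.5% and 86.9% of endothelial cells, and in 0.336% to 1.34% of oligodendrocytes. Endothelial Abcc4 stood at 86.5, 100.1, 121 and 138 CPM in sets 1 to 4 and was found in 38.2%, 32.7%, 42.2% and 42.9% of cells. Oligodendrocytes held Abcc4 at 1.25 to 1.81 CPM. With each endothelial cell thinned to 1000 UMIs, which left out 154 shallower cells (56, 17, 21 and 60), 69.0% to 81.7% still held Abcb1a, 34.4% to 60.9% Abcg2 and 8.38% to 14.4% Abcc4.

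**Figure D1:**
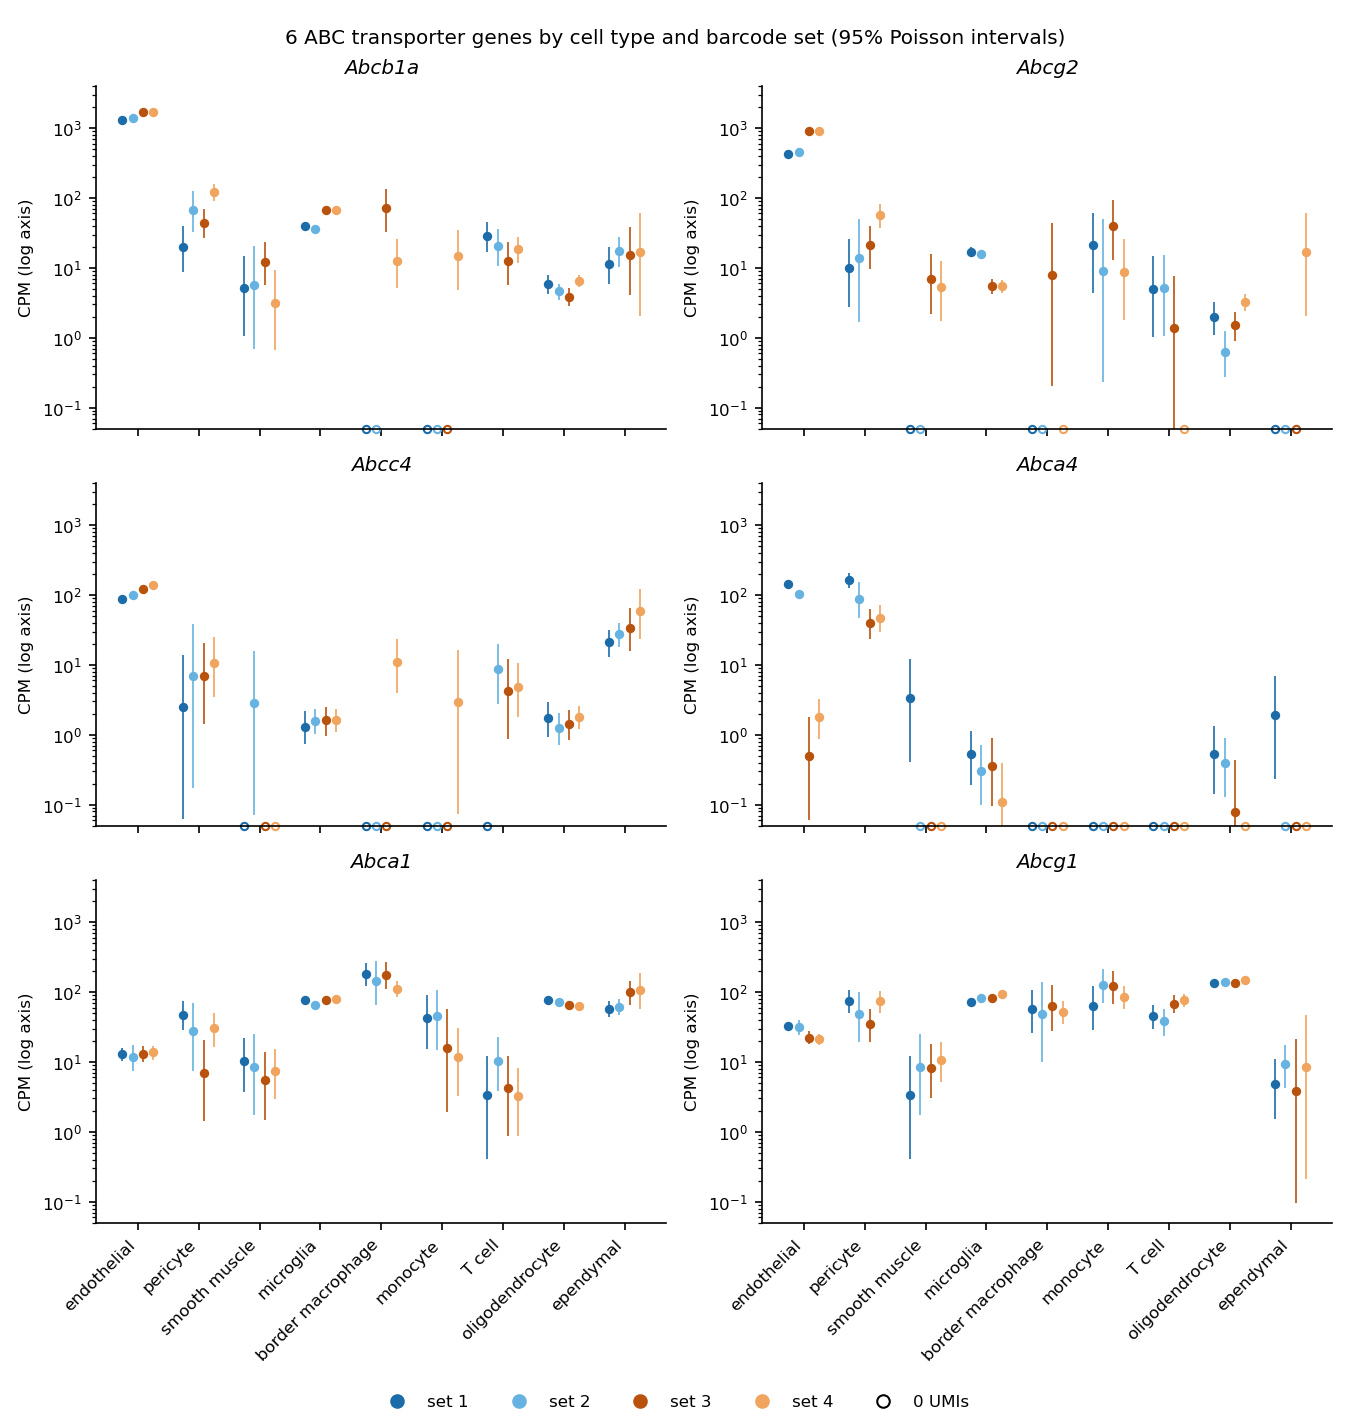
CPM of each gene (log axis) in 9 gated cell types, with 1 point per barcode set and 95% Poisson intervals; open circles at the base mark 0 UMIs. Abcb1a, Abcg2 and Abcc4 are highest in endothelial cells, Abca4 is found in pericytes of every set and in endothelial cells of sets 1 and 2, and Abca1 and Abcg1 are low in endothelial cells (11.7 to 13.6 and 21.2 to 32.9 CPM).

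Each type was compared with all other gated cells within each set, the erythroid gate among them. A gene was measured where both sums together held at least 20 UMIs in every set, and was called where every set gave a CPM ratio of 2 or more (higher) or of 0.5 or less (lower), with an exact 95% interval that left out 1. In endothelial cells 3 of the 6 members were called higher and 2 lower. Over all 12331 genes measured, 10.6% were called higher and 14.8% lower. The log2 ratio of Abcb1a was 4.39, 5.26, 5.70 and 5.47 in sets 1 to 4, a median fold of 41.2. That of Abcg2 ranged from 4.28 in set 1 to 7.74 in set 3, and that of Abcc4 from 4.18 in set 1 to 5.96 in set 4. In sets 1 and 2 the erythroid gate, part of the other cells, held Abcb1a at 327 to 391 CPM. It held Abcg2 at 121 to 123 CPM and Abcc4 at 20.8 to 25.9 there. Its part in the lower ratios of set 1 was not tested. Abca1 and Abcg1 were the members called lower, at median log2 ratios of -2.32 and -1.89. Abca4 was not called, with log2 ratios of 4.12, 5.599, -0.85 and 1.40 in sets 1 to 4, and it was called higher when set 3 was left out (median 4.12). The members' median log2 ratio was 4.06, against -0.07 over all genes measured. Since the members were chosen with earlier results of these data known, this contrast is a description and no test.

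Outside the endothelium the pumps were found at lower levels. Microglia, the resident macrophages of the brain, held Abcb1a at 39.4, 35.8, 66.6 and 67.6 CPM in sets 1 to 4, and 14.2% to 31.2% of them held a UMI. That was 2.61% to 3.99% of the endothelial level, whereas the 12 endothelial markers in microglia stood at medians of 0.181% to 0.485% of theirs. Of those markers Tie1 (12.6%) and Tek (4.27%) stood at a higher share than the 3.43% median of Abcb1a. Microglial Abcg2 stood at 17.1, 16.0, 5.44 and 5.42 CPM in sets 1 to 4, or 4.02%, 3.52%, 0.606% and 0.599% of its endothelial level. Sets 1 and 2 were the high ones in microglia, the reverse of the endothelial order. Whether other cells' RNA had a part in these microglial counts was not tested.

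Against all other gated cells, 0 of the 6 members were called higher and 4 lower in microglia, where 9.49% and 30.8% of all genes were (40.3% in either direction). The 4 were Abcb1a, Abcg2, Abcc4 and Abca4, at median log2 ratios of -2.46, -4.16, -4.18 and -4.60. The other gated cells include the endothelial cells and the erythroid gate, so these calls do not place microglia below most types. By median CPM microglia ranked 4 for Abcb1a, after endothelial cells, the erythroid gate and pericytes, and 5 for Abcg2. Their median Abcb1a was 53.0 CPM, against 5.23 in oligodendrocytes and 19.7 in T cells. Scaling by TMM factors moved the microglial median of all genes from -0.66 to -0.08 and the calls over all genes from 1170 higher and 3803 lower to 1820 and 2763. Abca4 then lost its call, as it did with the stricter cell filter, all barcodes, thinned cells and a minimum of 50 UMIs. Ependymal cells, which line the ventricles, held Abcc4 at 21.0, 27.7, 34.1 and 58.3 CPM in sets 1 to 4. That was 24.3%, 27.6%, 28.1% and 42.2% of its endothelial level, with the endothelial markers at a median of 0% of theirs. Every set of ependymal cells lay above the highest value in microglia or oligodendrocytes. Monocytes held Abcg2 at 8.86 to 40.2 CPM from 12 UMIs in all.

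Abca4 was found in pericytes, the contractile cells on the outside of capillaries, in every set. It stood there at 165, 88.9, 39.7 and 47.6 CPM in sets 1 to 4, from 66, 13, 17 and 22 UMIs. Set 1 was the highest and set 3 the lowest. A UMI was found in 30.8%, 25%, 8.57% and 9.20% of pericytes, against at most 0.316% of oligodendrocytes. Abca4 was the 1 member called higher in pericytes, where 6.44% of all genes were, with log2 ratios of 2.20, 3.53, 7.07 and 7.20 in sets 1 to 4. The ratios were larger in sets 3 and 4 although the pericyte level was lower there. The other gated cells include the endothelial cells, which held Abca4 at 145, 104, 0.496 and 1.80 CPM in sets 1 to 4. The call was lost with cells thinned to 1000 UMIs, with the stricter cell filter and with a minimum of 50 UMIs. In pericytes 0 members were called lower, where 4.27% of all genes were, but Abcb1a (19.996 to 121 CPM) and Abcg2 (9.998 to 56.2 CPM) were when set 2, with 52 pericytes, was left out. Both were also called lower with cell types from clusters, TMM factors and the mean of single-cell CPM, and Abcb1a with the stricter cell filter. Both stood near the 3.76% median of the endothelial markers there, at medians of 3.79% and 2.69% of their endothelial levels. Pericyte Abca4 stood at 114% and 85.9% of its endothelial level in sets 1 and 2, and at 8008% and 2650.3% in sets 3 and 4, where the endothelial sums held 2 and 10 UMIs. With TMM scaling the pericyte calls over all genes moved from 794 higher and 526 lower to 584 and 865.

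Endothelial Abca4 split the sets. It stood at 145 CPM in set 1 (979 UMIs, interval 136 to 155) and 104 in set 2 (213 UMIs, 90.1 to 118). In set 3 it stood at 0.496 CPM (2 UMIs, 0.06003 to 1.79) and in set 4 at 1.80 (10 UMIs, 0.861 to 3.30). Sets 1 and 2 held the gene and sets 3 and 4 hardly did. A UMI was found in 28.4%, 18.4%, 0.327% and 0.503% of endothelial cells of sets 1 to 4. In set 1 the 57 cells with 5 or more UMIs carried 65.4% of the 979 UMIs, and the highest cell held 49. In set 2 the 14 such cells carried 61.5%, and the highest held 27. Over all barcodes, with no gate and no filter, Abca4 stood at 38.3, 9.06, 0.855 and 0.774 CPM in sets 1 to 4, values that also depend on the share of endothelial cells in each set.

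**Figure D2:**
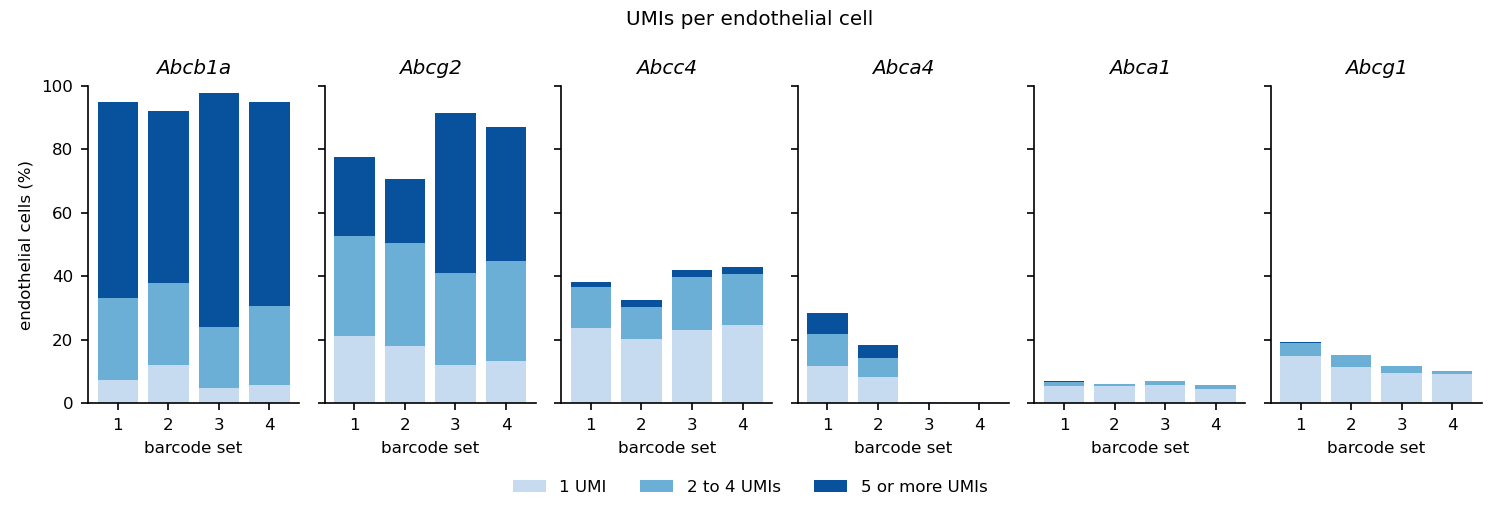
Share of endothelial cells (%, linear axis) with 1, 2 to 4, and 5 or more UMIs of each gene, for barcode sets 1 to 4. Abcb1a is found in over 90% of the cells of every set, while Abca4 is found in 28.4% and 18.4% of the cells of sets 1 and 2 and in 0.327% and 0.503% of those of sets 3 and 4.

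The endothelial cells with Abca4 in sets 1 and 2 were described further, a choice made after these values were seen. In set 1, 147 cells held 2 or more Abca4 UMIs and 629 held none, and in set 2 these were 35 and 280 cells. The cells with Abca4 were deeper, with a median of 9349 against 4463 UMIs in set 1 and 9118 against 3530 in set 2. Their endothelial markers summed to 13693 against 13767 CPM in set 1 and 13630 against 13649 in set 2. Pericyte markers summed to 66.9 against 146 CPM in set 1 and to 201 against 78.1 in set 2, lower in the one and higher in the other. Erythroid markers summed to 2646 against 1858 CPM in set 1 and to 2754 against 2277 in set 2, and their part was not tested. Abcg2 stood at 271 CPM in the cells with Abca4 against 505 in set 1, and at 315 against 503 in set 2. Abcb1a stood at 1091 against 1423 CPM in set 1 and at 1356 against 1388 in set 2.

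The genes with the largest excess in those cells in both sets were, in order, Apln, Acp5, Angpt2, Stc1 and Rtn1. They were ranked by the lower of their log2 ratios in sets 1 and 2, with 5 CPM added to each level. They were named after their values were seen and with no test. A gene needed at least 20 UMIs in the cells with Abca4 of each set, and no minimum in the cells without it. That rule favours genes high in the cells with Abca4, so their excess is a description only. Acp5 stood at 115 against 10.5 CPM in set 1 and at 54.6 against 4.34 in set 2. Apln, the apelin gene known from endothelial tip cells, stood at 271 against 6.82 CPM in set 1 and at 196 against 4.34 in set 2. Angpt2, a Tie2 ligand of remodelling vessels, stood at 1604 against 256 CPM and at 1227 against 198. Over all endothelial cells Apln stood at 85.8, 43.3, 12.4 and 11.7 CPM in sets 1 to 4 and Angpt2 at 679, 450.01, 19.3 and 18.9. Both were high in sets 1 and 2, as Abca4 was, and the genes had been picked by their values in those sets. Acp5 (41.1, 18.0, 1.73 and 3.05 CPM) and Stc1 (98.4, 49.6, 10.2 and 8.62) were high there too. Rtn1 differed less, at 23.7, 19.0, 15.9 and 12.4 CPM in sets 1 to 4. Apln kept a UMI in 4.90% and 3.72% of the endothelial cells of sets 3 and 4.

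A member was said to lie apart between sets where the highest set exceeded the lowest at least 2-fold, with an interval that left out 1 and at least 50 UMIs. In the endothelium 2 of 6 members lay apart, where 14.3% of 8315 measured genes did. The ratio of Abca4, set 1 over set 3, was 293 (80.9 to 2423). That of Abcg2, set 4 over set 1, was 2.14 (2.04 to 2.24), and it fell short of the limit on leaving out set 1 (0.9974 on the log2 scale) and with TMM factors (0.88). The other ratios were 1.30 for Abcb1a, 1.60 for Abcc4, 1.17 for Abca1 and 1.55 for Abcg1. With the mean of single-cell CPM Abca1 lay apart too, at 1.15 on the log2 scale. Marker sums in endothelial cells also moved with the sets: 2169, 2158, 1013 and 1419 CPM for erythroid, 1798, 1596, 569 and 518 for monocyte and 114, 155, 274 and 351 for pericyte markers in sets 1 to 4. The monocyte markers include Fn1, a leading gene of the endothelial cluster held mainly by sets 1 and 2, so their sum need not reflect monocyte RNA. The part of these marker sums in the set differences was not tested, and condition, animal and library cannot be told apart.

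Other types gave their own set differences. In microglia 1 of 4 measured members lay apart, where 14.5% of all genes did: Abcg2, set 1 over set 4, at 3.15 (2.46 to 4.05). Microglial Abcb1a, set 4 over set 2, came to 1.89 (1.71 to 2.09). In oligodendrocytes 1 of 4 lay apart, where 9.22% of genes did: Abcg2, at 0.627 CPM in set 2 and 3.23 in set 4. That ratio, 5.15 (2.42 to 12.6), came from 8 UMIs in set 2 and 50 in set 4, of which 1 cell held 14. In pericytes both of the 2 measured members did, where 16.4% of genes did: Abca4, set 1 over set 3, at 4.16 (2.41 to 7.56), and Abcb1a, set 4 over set 1, at 6.06 (2.87 to 14.7). Of the 56 Abcb1a UMIs in pericytes of set 4, 80.4% lay in 6 cells with 5 or more, and set 1 held 8 UMIs. The Abcb1a ratio therefore rests on few cells, whose spread the interval does not cover.

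Abca1 and Abcg1, the sterol exporters, were called lower in endothelial cells, and their levels in the other types differed between them. Abca1 stood at 183, 145, 175 and 112 CPM in sets 1 to 4 in border macrophages, the macrophages of meninges and perivascular spaces. Each of these values was above those of microglia (76.3, 65.1, 76.7 and 78.9 CPM), oligodendrocytes (75.7, 72.2, 66.2 and 63.6) and ependymal cells (57.3, 61.5, 98.6 and 108) in the same set. Border macrophages gave 29, 9, 22 and 62 UMIs, and their intervals overlapped those of all 3 types in set 2 and those of ependymal cells in sets 3 and 4. The ranges of the last 3 types overlap, so these data give them no order. Endothelial Abca1 stood at 13.1, 11.7, 13.1 and 13.6 CPM, and T cells held 3.24 to 10.3. In microglia and oligodendrocytes Abca1 was not called, with median log2 ratios of 0.69 and 0.36.

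Abcg1 stood at 134, 137, 132 and 149 CPM in oligodendrocytes, the myelin-forming cells, and 47.8% to 55.2% of them held a UMI. In each set this exceeded microglia (72.3, 82.9, 81.6 and 94.7 CPM) with no overlap of intervals. Monocytes held 63.4, 128, 121 and 85.6 CPM from 9 to 29 UMIs, which in sets 2 and 3 was within counting error of the oligodendrocyte level. In oligodendrocytes 1 member, Abcg1, was called higher and 4 lower, where 17.5% and 25.6% of all genes were (43.1% in either direction). Its log2 ratios were 1.46, 1.04, 1.11 and 1.03 in sets 1 to 4, close to the limit of 1. The call was lost with TMM factors (median 0.99), the mean of single-cell CPM (0.92), thinned cells (0.97) and cell types from clusters (1.01). Endothelial Abcg1 stood at 32.9, 31.6, 22.3 and 21.2 CPM and pericyte Abcg1 at 75.0, 47.9, 35.0 and 73.6. In smooth muscle cells 4 members were called lower and 0 higher, where 8.58% and 7.8% of genes were: Abcb1a, Abcg2, Abca1 (median log2 ratio -2.93) and Abcg1 (-3.47).

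Endothelial cells were divided by markers into 453 arterial, 976 capillary and 493 venous cells, and 907 lay between these. Abcg2 stood at 428, 342, 518 and 677 CPM in arterial cells of sets 1 to 4, at 574, 663, 1188 and 1269 in capillary cells, and at 303, 378, 713 and 596 in venous cells. In each set the capillary value was the highest of the 3, and its interval overlapped neither of the others. This comparison was chosen after the values were seen: 1 of the 4 members measured met it, as did 0.624% of 5926 genes, while 0.709% met the reverse, a lower capillary value, and 0 members did. Abcb1a stood at 1274, 869, 1443 and 1443 CPM in arterial, 1439, 1437, 1668 and 1789 in capillary, and 1365, 1631, 1927 and 1717 in venous cells. The arterial value was the lowest of the 3 in every set, though in set 1 its interval overlapped the venous one. Abcc4 stood at 76.8, 62.9, 77.8 and 133 CPM in arterial and at 94.3, 133, 145 and 146 in venous cells. Pericyte markers in arterial cells summed to 407, 68.9, 894 and 695 CPM and in capillary cells to 24.2, 80.3, 38.5 and 121, and their part was not tested.

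**Figure D3:**
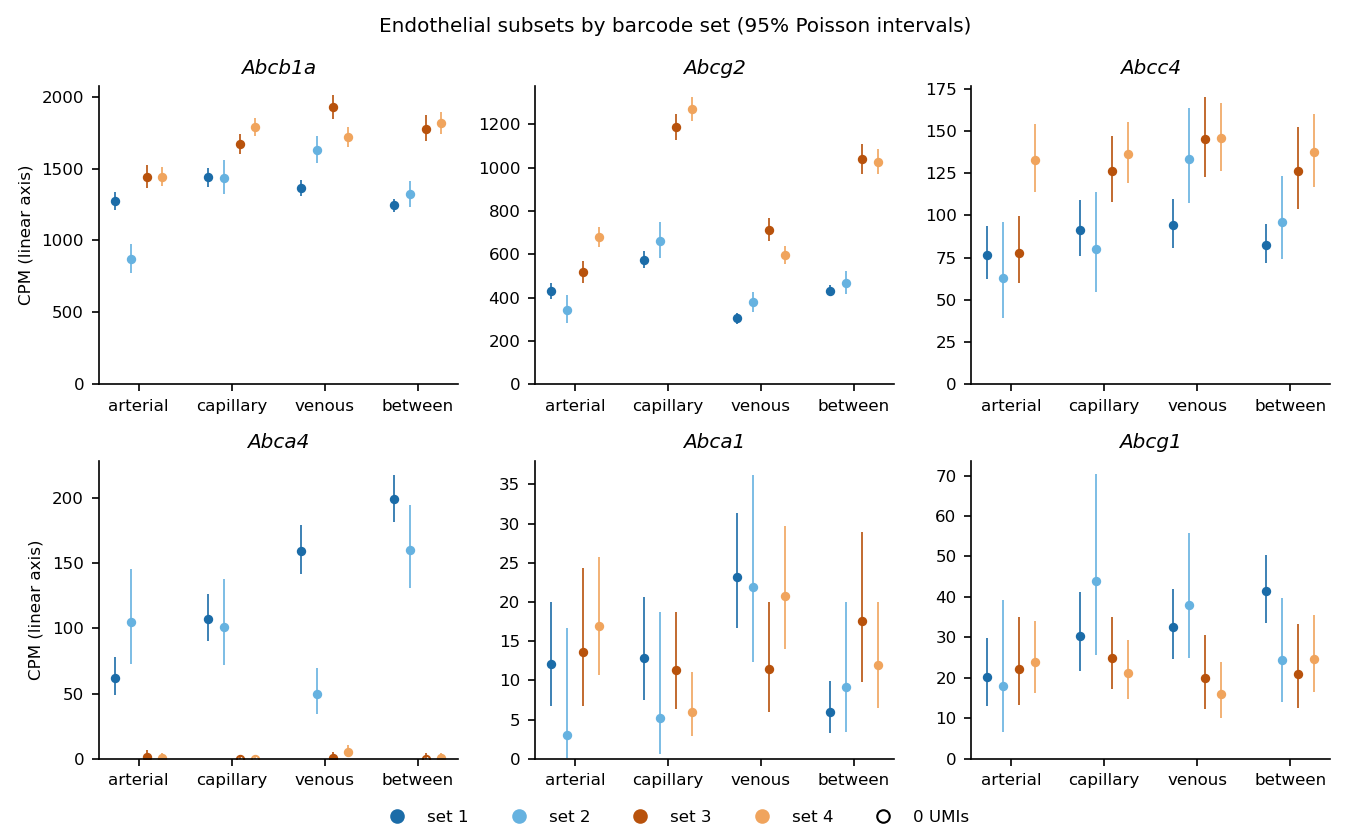
CPM of each gene (linear axis from 0) in arterial, capillary, venous and between endothelial cells, with 1 point per barcode set and 95% Poisson intervals. Of arterial, capillary and venous cells, the capillary ones hold the highest Abcg2 in each set, and Abca4 reaches at most 5.55 CPM in sets 3 and 4.

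Between arterial and venous cells 0 of the 4 measured members were called, where 1.57% of 4984 genes were called higher in arterial cells and 0.903% lower (2.47% in either direction). The median log2 ratio of arterial to venous cells was -0.33 for Abcb1a, 0.02 for Abcg2, -0.60 for Abcc4 and -0.27 for Abcg1. Abca4 and Abca1 had too few UMIs in some set to be measured. Abca4 in set 1 stood at 62.3 CPM in arterial, 107 in capillary, 159 in venous and 199 in between cells, and in set 2 at 104.9, 101, 49.8 and 160. Both sets had their highest value in the between cells, while the order of arterial and venous cells differed. Abca1 stood at 23.2, 21.9, 11.5 and 20.8 CPM in venous and at 12.1, 2.996, 13.6 and 17.0 in arterial cells, with overlapping ranges.

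Within single endothelial cells thinned to 1000 UMIs, Abcg2 was found in 36.8% of cells with Abcb1a and 28.3% of cells without it in set 1. These shares were 41.3% and 27.7% in set 2, 59.8% and 65.7% in set 3, and 59.8% and 50% in set 4, so set 3 went the other way. Abcg2 was found in 17.6% of 74 cells with Abca4 and 36.0% of those without in set 1, and in 38.1% of 21 cells and 37.0% in set 2. Cells in which no member was found made up 16.4%, 19.0%, 5.75% and 8.77% of sets 1 to 4.

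Over the 13 cell types likeness was measured as Pearson's r of log2(CPM + 5). The types share libraries, and r is a description only. They include the erythroid and B cell gates, whose member values are doubtful, so r was also computed over the other 11 types, a choice made after the data were seen. Abcb1a had an r of 0.92 with Abcg2, 0.81 with Abca4 and 0.76 with Abcc4, while Abca1 and Abcg1 had 0.39. Over 11 types these were 0.90, 0.77, 0.71 and 0.24. Of 9619 other genes, the closest to Abcb1a were Arhgap31 (0.97), Ramp2 (0.94) and Castor1 (0.93), and the closest to Abcg2 were Sox15 (0.98), Ushbp1 (0.97) and Flt4 (0.96). Those closest to Abcc4 were Shank3 (0.98), Slc38a3 (0.96) and Arhgef15 (0.94), and to Abca4 Slc22a8 (0.98), Dach1 (0.97) and Fxyd6 (0.97). For Abca1 they were Mitf (0.89), Creb5 (0.88) and Prag1 (0.87), and for Abcg1 Dgkz (0.90), Sft2d1 (0.89) and Snrnp48 (0.89). Over 11 types the r of these named genes ran from 0.86 (Mitf with Abca1) to 0.99 (Dach1 with Abca4).

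The rest of the family was counted from lists chosen by function, to be read against the shares of all genes called in the same type (10.6% higher and 14.8% lower in endothelial cells, 17.5% and 25.6% in oligodendrocytes). Of 4 measured plasma membrane pumps 1 was called higher in endothelial cells and 0 lower: Abcc6, at 16.5, 15.1, 24.0 and 28.0 CPM in sets 1 to 4. Of 5 measured lipid transporters, Abca7 was higher there (median log2 ratio 1.92) and Abca8a (-5.17) and Abca2 (-3.48) were lower. In oligodendrocytes Abca2, a transporter of endolysosomes in myelinating cells, was higher (4.68) at a median of 708 CPM, as was Abca8a (6.19), while Abca9 (-6.02) and Abca7 (-3.41) were lower. The 1 measured channel regulator, Abcc9, the sulfonylurea receptor of vascular potassium channels, was higher in pericytes at 2397, 2784, 2356 and 2055 CPM. Of 11 members listed for intracellular membranes, 1 (Tap2, 1.45) was higher in endothelial cells and 0 lower. In oligodendrocytes 2 of these 11 were higher, the peroxisomal Abcd3 (2.46) and Abcb6 (1.496), and 5 lower. Of 4 soluble members 0 were called in endothelial cells.

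Of 20 sterol efflux partners and LXR pathway genes, 4 were higher and 4 lower in endothelial cells, where 10.6% and 14.8% of all genes were. Scarb1, a receptor for high-density lipoprotein, was higher (median log2 ratio 4.10) at 122, 113, 178 and 185 CPM in sets 1 to 4. Pltp, the phospholipid transfer protein (3.30), and Nr1h3, the gene of LXR alpha (3.18), were higher too. Pericytes held more Nr1h3 than endothelial cells, at medians of 53.8 and 18.0 CPM. Npc2 (-3.25), Npc1 (-1.79) and Mylip (-1.66) were among those lower, against all other gated cells together. Median Npc1 was 30.3 CPM in endothelial cells, 26.5 in microglia and 231 in oligodendrocytes. In the same order Mylip stood at 21.6, 116 and 10.4 CPM and Npc2 at 212, 3758 and 273. In microglia 6 of the 20 were higher and 5 lower, where 9.49% and 30.8% of all genes were, with Npc2 (4.04), Lipa (2.86) and Apoe (2.79), the main brain apolipoprotein, the largest. In oligodendrocytes 3 were higher and 11 lower, where 17.5% and 25.6% of all genes were, with Npc1 at 3.33 and Pltp at -5.74. Of 3 measured regulators of drug pumps, Vdr (5.52), the vitamin D receptor, and Ahr (2.61), the dioxin receptor, were higher in endothelial cells, at medians of 10.3 and 9.09 CPM. The Ahr medians of pericytes (13.5 CPM) and smooth muscle cells (11.6 CPM) were above the endothelial one. Between arterial and venous cells Apoe (-2.07) and Ch25h (-1.85) were lower in arterial ones.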

How the data were processed

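The deposited file is 1 matrix of UMI counts, written by Cell Ranger 5.0.0 per the file headers. The submitters' processing notes name Cell Ranger, STAR and the build Rnor_6.0. Counts were used as deposited. Cells with at least 500 UMIs, 300 genes and at most 20% mitochondrial UMIs were kept, and Scrublet doublets (942) were removed in each set. A marker was positive at 10% of its level at the 99.9 percentile. A cell was typed when it held at least 3 own markers (more for long lists) with the share of any unrelated type's markers at most 0.5 of its own. Between related types, such as pericytes and smooth muscle cells, the larger share decided, with no such limit. These gate settings were chosen after the data were seen. Endothelial subsets needed a score lead of 0.2 SD. CPM were computed from summed UMIs, with exact Poisson, binomial and conditional intervals (scipy 1.17.1). No test was run across sets, which carry no sample label, and no cells were used as replicates. PCR and capture error are not covered. CPM from a 3' kit are not divided by gene length. Median depth was 4383 to 5679.5 UMIs per barcode. Alternatives covered cell filters, doublets, clusters, markers, TMM factors (edgeR 4.0.16), single-cell means, thinning, UMI minimums and leaving out each set. Every member is named; of other lists, at most 3 called genes per list and direction with the largest median ratio. The script's call rule was tested on simulated data. Members and lists were chosen with earlier results of these data known.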

Additional observations from a re-analysis of the deposited data

Results flagged for a closer look

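The 3361 kept cells that met no gate also held all 6 members, above the limit that a count of 0 allows, and entered no comparison. Over the 4 sets together Abcb1a stood at 201 CPM in these cells, Abcg2 at 74.8, Abcc4 at 14.0, Abca4 at 19.9, Abca1 at 20.03 and Abcg1 at 25.6. In sets 1 to 4 their Abca4 stood at 44.3, 15.6, 0.714 and 0.638 CPM, high in sets 1 and 2 and near 0 in sets 3 and 4. Their Abcb1a stood at 273, 81.3, 261 and 230.3 CPM, so set 2 was the lowest.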

How the results depend on the processing

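Of 98 recomputed counts of members, 87 stayed within 1.5 times the reported count and 11 did not, and no called value changed sign. In endothelial cells 5 members were called under each alternative except without set 3, where 6 were; leaving out each set in turn gave 5 to 6. The count of members apart between sets in endothelial cells (2) fell to 1 with TMM factors, rose to 3 with the mean of single-cell CPM, where Abca1 was added (log2 ratio 1.15), and was 1 to 2 on leaving out each set in turn. In oligodendrocytes the count (5) was 3 with the mean of single-cell CPM and 3 with thinned cells. In pericytes the count (1) was 3 with cell types from clusters, 3 with TMM factors, 3 with the mean of single-cell CPM, 0 with thinned cells, 0 with a minimum of 50 UMIs, and 1 to 3 on leaving out each set in turn. In smooth muscle cells the count (4) was 1 with thinned cells. Thinning leaves fewer UMIs; for the other settings the cause was not tested. Some uncalled values changed sign, such as Abca1 in pericytes (-1.06, and 0.079 with cell types from clusters), Abcg1 in microglia (-0.18, and 0.45 with TMM factors) and members between arterial and venous cells. The log2 ratio of endothelial Abca4 between sets ranged from 6.34 to 8.42. For 54 settings a sum of 0 UMIs gave no finite ratio, and these are not counted for single members. No paired analysis was possible because the sets carry no sample label. Pericytes and smooth muscle cells are few, and low counts there limit what can be called. The cluster naming was relaxed after the data were seen, since endothelial clusters also led with Fn1 and Nrgn, listed for other types.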
